A study of Mus musculus with 65 samples.

Results

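The 510 hotspots described here are weak DMC1 peaks from mouse testis, mapped as sites of meiotic DNA double-strand breaks. Whether each is a break site or a background peak was not tested. At these hotspots the axis protein SYCP3 had a peak when IHO1 was missing. They were chosen from the 13808 DMC1 hotspots of the wild type by 4 criteria: an autosome, a deposited DMC1 signal below 129, at least 1 bp of overlap with an SYCP3 peak of Iho1KO, and no overlap with a wild-type CTCF peak or with a MEI4 peak of any of 5 genotypes. Of the 13314 autosomal hotspots, 6670 were below 129, which was also the median over all 13808 hotspots. Of these weak hotspots, 620 lay at an SYCP3 peak of Iho1KO. Removing those at CTCF (96) or MEI4 (20, with 6 at both) left the 510. Because the wild-type DMC1 value, SYCP3 in Iho1KO, CTCF and MEI4 chose the hotspots, values of these lists are given as a description only. The 5222 weak hotspots that met the same criteria but had no SYCP3 peak in Iho1KO (the other weak hotspots) are the comparison throughout.

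In mouse meiosis the histone methyltransferase PRDM9 binds specific DNA motifs and directs SPO11 to break the DNA there. The resected ends are coated by the recombinase DMC1, whose single-stranded DNA can be sequenced to map hotspots. Breaks form on chromatin loops tethered to a proteinaceous axis that contains SYCP3 and HORMAD1, and IHO1 and MEI4 are axis-associated partners needed for break formation. In mice without PRDM9, breaks form largely at promoters and other open chromatin instead.

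The series measured chromatin immunoprecipitation followed by sequencing in 65 samples of whole testis, in 36 groups of an antibody and a genotype, and 24 peak lists, 1 per group, were analysed here. All groups came from pups fed an inhibitor of retinoic acid synthesis from 1.5 days of age for 7 to 10 days. One injection of retinoic acid then started meiosis together, and testes were taken 8 days later, when 80 to 95% of cells were in leptotene or zygotene. The wild type was C57BL/6JCrl, and the mutants were Prdm9KO (B6;129P2-Prdm9tm1Ymat/J), Spo11KO (Spo11tm1Mjn), Mei4KO (Mei4tm1Bdm), Iho1KO (Iho1tm1.2Atot) and Hormad1KO (Hormad1tm1.2Atot). Whole testis also holds somatic cells and spermatogonia. SYCP3 was mapped in 1 sample each of Iho1KO, Prdm9KO and Spo11KO, and every other group used here has 2 samples in the labels. With 1 list per group, no value below has a replicate check. All SYCP3 lists share an antibody and, per the series' design text, the subtraction of the same Sycp3KO signal, so a background peak common to them cannot be told apart from SYCP3. Sequencing depth is unknown, and peak lists hold no markers with which the cell type could be checked.

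Most of these hotspots sat at the starts of genes with CpG-rich promoters, so promoter sequences introduce them. The following lines give bases before the annotated start that lie in no annotated gene, 5′ to 3′ on the gene's strand, with CpG dinucleotides in capitals, from the RefSeq promoter table of GRCm38.p6. The first 4 belong to starts with 1 gene in that table, whose hotspot had SYCP3 peaks in 3 further genotypes: Trap1 (mitochondrial chaperone; chr16:4077841-4078060, minus strand), Nupl2 (nucleoporin; chr5:24164713-24164962, plus), Psmd6 (proteasome regulatory subunit; chr14:14120946-14121195, minus) and Ppp2r1b (protein phosphatase 2A scaffold; chr9:50856674-50856895, plus). Sycp1 (synaptonemal complex transverse filament; chr3:102936101-102936350, minus) and Dazl (germ-cell RNA-binding protein; chr17:50293621-50293870, minus) are the meiotic and germline examples. Xpnpep1 (an aminopeptidase; chr19:53038663-53038820, minus) stands for the other weak hotspots, as the promoter whose CpG ratio was nearest their median.
Trap1: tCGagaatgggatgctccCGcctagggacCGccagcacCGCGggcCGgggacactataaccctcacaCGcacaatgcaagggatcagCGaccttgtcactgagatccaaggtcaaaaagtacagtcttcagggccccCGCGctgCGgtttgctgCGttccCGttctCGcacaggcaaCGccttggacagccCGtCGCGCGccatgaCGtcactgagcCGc
Nupl2: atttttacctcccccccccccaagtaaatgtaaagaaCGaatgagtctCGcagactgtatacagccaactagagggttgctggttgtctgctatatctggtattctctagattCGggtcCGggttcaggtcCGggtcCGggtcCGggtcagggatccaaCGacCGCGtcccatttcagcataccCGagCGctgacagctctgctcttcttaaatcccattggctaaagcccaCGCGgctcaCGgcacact
Psmd6: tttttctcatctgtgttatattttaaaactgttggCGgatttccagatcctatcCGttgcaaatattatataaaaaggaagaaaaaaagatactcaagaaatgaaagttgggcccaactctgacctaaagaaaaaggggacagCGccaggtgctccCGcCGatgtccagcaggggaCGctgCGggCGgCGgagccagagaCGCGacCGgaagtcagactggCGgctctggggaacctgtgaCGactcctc
Ppp2r1b: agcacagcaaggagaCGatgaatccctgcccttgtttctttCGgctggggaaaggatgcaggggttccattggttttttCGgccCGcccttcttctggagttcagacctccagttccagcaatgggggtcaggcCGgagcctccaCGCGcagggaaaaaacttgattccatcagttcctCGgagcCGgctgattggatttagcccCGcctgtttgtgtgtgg
Sycp1: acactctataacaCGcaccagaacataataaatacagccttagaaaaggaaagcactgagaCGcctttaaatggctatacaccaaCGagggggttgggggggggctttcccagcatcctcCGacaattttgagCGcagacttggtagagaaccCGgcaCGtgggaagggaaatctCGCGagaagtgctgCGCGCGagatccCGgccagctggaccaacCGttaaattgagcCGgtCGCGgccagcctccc
Dazl: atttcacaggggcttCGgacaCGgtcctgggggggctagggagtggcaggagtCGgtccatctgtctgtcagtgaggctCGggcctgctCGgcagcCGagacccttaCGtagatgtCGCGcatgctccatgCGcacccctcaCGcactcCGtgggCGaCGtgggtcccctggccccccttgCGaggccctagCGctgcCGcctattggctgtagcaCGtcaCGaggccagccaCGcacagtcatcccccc
Xpnpep1: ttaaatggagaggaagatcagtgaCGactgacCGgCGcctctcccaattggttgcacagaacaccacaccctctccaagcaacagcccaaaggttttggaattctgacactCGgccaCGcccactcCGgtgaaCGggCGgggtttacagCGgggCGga
The CpG count was 21 in the 220 bases of Trap1, 20 in the 250 of Dazl, 17 in the 250 of Sycp1, 15 in the 250 of Nupl2, 10 in the 222 of Ppp2r1b and 10 in the 158 of Xpnpep1. In these printed bases the observed-to-expected CpG ratio was 0.57 for Ppp2r1b and 0.764 for Xpnpep1. Over the full 300 bp promoter sequences, for which medians are given below, the ratios were nearly equal, at 0.732 and 0.765. Single promoters thus need not follow the medians. Psmd6, with 14 CpG in 250 bases, carries them mostly in its start-proximal part.

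The wild-type DMC1 signal of the 510 hotspots ran from 6.0 to 127.0, with a median of 52.8 (quartiles 37.0 and 78.0). The other weak hotspots had a median of 54.0 (35.5 and 81.0), so the 2 sets were about equally strong. Hotspots just inside the threshold were those of Sacm1l (125.5), Lpgat1 (126.0) and Tasor2 (127.0). Just outside lay the hotspot of Ddx4, the germ-cell RNA helicase, at 129.0, and 2 hotspots at 129.5, of which the one at chr14:61646625-61649410 had no gene start. The deposited intervals were wider than those of the other weak hotspots, with medians of 2460 and 1880 bp. Other weak hotspots at gene starts were in between, at 2220 bp. The 510 hotspots were spread over all 19 autosomes, from 15 on chromosome 8 (4.59% of its weak hotspots) to 49 on chromosome 4 (12.3%).

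Of the 488 hotspots on the 18 autosomes with annotated start sites, 386 came within 1000 bp of the start of a protein-coding gene (79.1%, Wilson 95% interval 75.3 to 82.5). All autosomal hotspots did so in 9.17%, and the other weak hotspots in 356 of 4993 cases (7.13%, 6.45 to 7.88). The difference of 72.0 percentage points (Newcombe 95% interval 68.1 to 75.4) was called, meaning that its interval excluded 0. Such intervals cover counting error only and treat hotspots as independent. SYCP3 peaks of Iho1KO lay at gene starts in general: 58.5% of the 5176 autosomal peaks did, and 64.9% of the 3195 at neither a hotspot nor a CTCF peak. The share at starts here therefore has to be read beside that of the peaks that chose the hotspots. Weak hotspots at CTCF peaks, which bind another architectural protein, were at starts in 32.3% (190 of 588), 46.8 points fewer (41.3 to 51.8).

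The share at gene starts did not follow hotspot strength among the 510. Dividing all weak hotspots into 4 equal classes of DMC1 signal gave 78.4% at starts in the weakest class, then 82.9%, 78.3% and 75.3%. In the other weak hotspots the shares were 9.74%, 8.28%, 6.07% and 4.19%. The 4 differences ran from 68.7 to 74.6 points and all were called. With each hotspot reduced to a 1000 bp window at its centre, which removes the difference in width, the overall difference was 72.5 points (68.5 to 75.9).

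**Figure D1:**
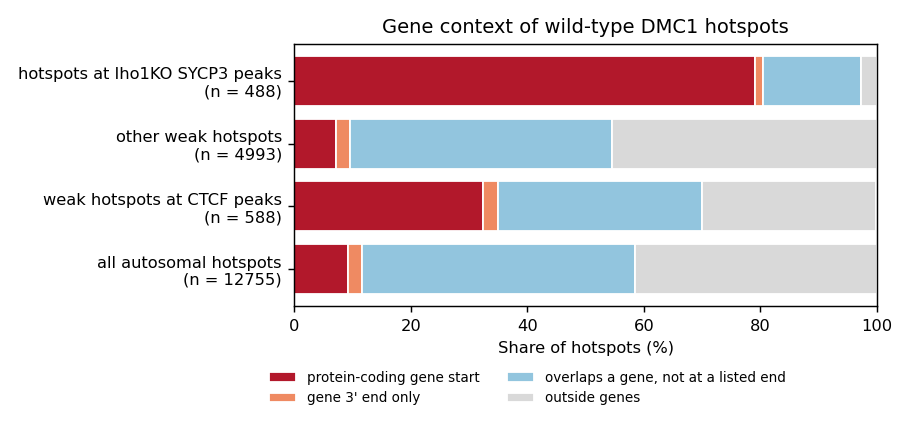
Stacked bars show the share (%) of hotspots in each of 4 gene contexts, with ends taken from genes in the promoter table, for the hotspots at Iho1KO SYCP3 peaks, the other weak hotspots, weak hotspots at CTCF peaks and all autosomal hotspots, with n in the labels. Protein-coding gene starts take 79.1% of the first bar and 7.13% of the second.

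Of the 102 hotspots not at a listed start, 82 overlapped a protein-coding gene without reaching a start or 3′ end known from the promoter table, 13 lay outside protein-coding genes and 7 at a 3′ end only. The promoter table covers 81.7% of the 20154 protein-coding genes on these autosomes, and 68 of the 102 were at an end of a gene that has no entry, 18 at another annotated end and 16 away from every annotated end. Hotspots at an annotated gene end but not at a listed start included those at Dync1li2 (a dynein light intermediate chain) and Mtdh (metadherin). Counting either end of any annotated gene, 492 of the 510 hotspots (96.5%, 94.5 to 97.8) lay within 1000 bp of one. All autosomal hotspots did in 20.3% and other weak hotspots in 17.8% (930 of 5222).

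Only 18 of the 510 hotspots were away from every annotated gene end, among them sites inside Magi2, Psd3 and Wdfy3. The 3 farthest from a protein-coding gene lay 49041, 46409 and 38844 bp away. The farthest, at chr14:115040897-115043159 (signal 73.5, also an SYCP3 peak in Prdm9KO), adjoins the Mir17 microRNA gene. The next, at chr7:79514321-79516580 (40.5), lies in Mir9-3hg, the host of a microRNA of the nervous system, and the other, at chr4:8646547-8648962 (103.0), at the long noncoding RNA Gm8273.

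Within the 386 hotspots at starts, most hotspot centres lay downstream of the start. A centre is the midpoint of a deposited interval, since no signal profile was read. The same positions are not given for the other weak hotspots. The hotspot centre lay a median of 297 bp into the gene (quartiles 56 and 497), with 314 centres at or downstream of the start and 72 upstream. The SYCP3 peak centre lay at a median of 187 bp (73 and 320), with 318 downstream and 68 upstream. It was nearer to the start than the hotspot centre in 250 of the 386 cases and within 500 bp of it in 354, compared with 280 for hotspot centres. Over all 510 the 2 centres were a median of 250 bp apart (118 and 427). The pairing was close to 1 to 1: 511 SYCP3 peaks were involved, none touched more than 1 of the hotspots, and 1 hotspot touched more than 1 peak. Their median width was 1210 bp, against 1190 bp for SYCP3 peaks at no hotspot.

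**Figure D2:**
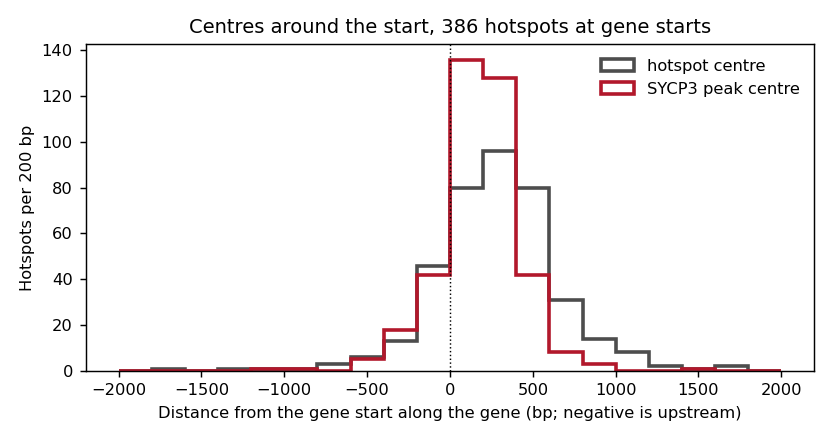
Histograms (200 bp bins) of the distance in bp from the gene start, measured along the gene, for the hotspot centres and SYCP3 peak centres of the 386 hotspots at starts. Both distributions peak just downstream of the start, at medians of 297 bp for hotspots and 187 bp for SYCP3.

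Among genes with an entry in the promoter table, pairs were rarer here than at the starts used by other weak hotspots. Of the 386 hotspots, 34 (8.81%) reached the starts of 2 or more genes, against 52 of 356 (14.6%; difference -5.8 points, -10.5 to -1.17). Divergent pairs, 2 genes read away from each other, were at 26 (6.74%) and 49 (13.8%; difference -7.03 points, -11.5 to -2.68). Both differences were called, but they were not among the 9 main results. Partners without an entry were missed: Psmc2 counted as a single gene although an end of Dnajc2 also lay at its hotspot. Whether such misses were equally common in the 2 sets was not tested. Examples with a divergent pair include Hspd1 and Hspe1, which encode the mitochondrial chaperonin and its partner, Fam228b and Pfn4 (a profilin), and Mgat2 and Rpl36al.

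The promoters at the 510 hotspots were rich in CpG. Over the 300 bp promoter sequences (250 bases before and 50 after the start) of 486 start sites, 88.3% had a GC content of at least 50% and an observed-to-expected CpG ratio of at least 0.6. At 467 start sites of other weak hotspots 70.0% did, at 3155 start sites with an Iho1KO SYCP3 peak but no hotspot 85.6%, and among all 20085 sites 46.5%. Median CpG ratios of these 4 sets were 0.899, 0.765, 0.862 and 0.586, and median GC contents 67.7, 60.3, 66.0 and 57.0%. The values at the 510 hotspots were thus closer to those of SYCP3-marked starts without a hotspot than to those of other weak hotspots. This is a description without a test, since start sites of 1 gene share sequence.

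**Figure D3:**
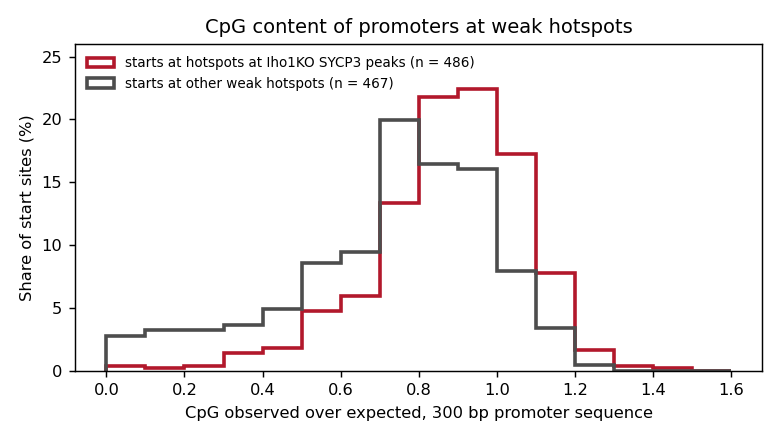
Histograms of the observed-to-expected CpG ratio in 300 bp promoter sequences, as a share (%) of start sites, for 486 starts at the hotspots with Iho1KO SYCP3 and 467 at other weak hotspots. The medians are 0.899 and 0.765, and ratios below 0.6 are more common at the other weak hotspots.

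The 9 short motifs of a fixed list were searched on both strands of the same promoter sequences. The SP/KLF box GGGCGG was in 74.7% of the promoters at the 510 hotspots, 61.9% at other weak hotspots, 75.5% at SYCP3-marked starts without a hotspot and 47.0% of all. The ETS core CCGGAAG was in 17.7, 21.6, 19.2 and 11.9% of the same sets, the YY1 motif AAGATGGCG in 4.73, 6.0, 3.45 and 1.83%, and the NRF1 motif GCGCATGC in 5.97, 4.5, 6.72 and 3.55%. The CCAAT box of NFY was in 34.6, 43.0, 34.5 and 38.1%, and the TATA box TATAAA in 4.12, 9.64, 5.8 and 12.7%. The CREB motif TGACGTCA gave 4.73, 4.5, 2.85 and 2.3%. The MYB motif GGCAGTT was in 2.26, 3.85, 2.66 and 3.94%, and the RFX motif GTTGCCA in 3.91, 5.78, 3.68 and 4.21%. In percentage points, GGGCGG and TATAAA were therefore the motifs whose shares lay farthest from those of all promoters, in opposite directions. In proportion, the YY1 (4.73 against 1.83%) and CREB (4.73 against 2.3%) motifs lay farther from all promoters than GGGCGG. The shares were not adjusted for GC content, whose medians were 67.7% here and 57.0% in all promoters. None of the motifs contains another. A match is a description of letters and no evidence of binding.

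The hotspots fell at genes of many housekeeping lists and at none of the tissue-restricted list. Of 16457 protein-coding genes with a start entry, 420 (2.55%) had 1 of the 510 hotspots at the start, and 3289 had an Iho1KO SYCP3 peak. In the proteasome list 4 of 42 genes did (9.52%: Psma4, Psmc2, Psmd6 and Psmd11), in translation initiation factors 3 of 41 (7.32%: Eif2a, Eif4e and the kinase Eif2ak3), and in chromatin enzymes 5 of 72 (6.94%: Arid1b, Arid4b, Chd6, Hdac2 and Kmt2c). DNA replication and repair had 5 of 74 (6.76%): the origin subunit Orc2, the helicase subunit Mcm6, the mismatch-repair gene Msh6, and Fancf and Fancm of the interstrand crosslink pathway. Vesicle traffic had 7 of 149 (4.7%), cell cycle 4 of 87 (4.6%), ubiquitin pathway 10 of 249 (4.02%), transcription machinery 3 of 86 (3.49%) and splicing 4 of 115 (3.48%). Lists at or below the share over all genes were meiotic recombination and axis (1 of 44), cytosolic ribosomal proteins (1 of 61), mitochondrial ribosomal proteins (1 of 69), respiratory chain (1 of 82) and zinc finger proteins (6 of 397, 1.51%). Tissue-restricted receptors and keratins had 0 of 1517. Only 1 of these genes had an Iho1KO SYCP3 peak, so the choice of hotspots left almost no room for them. The peaks that chose the hotspots were at 48.8% of translation initiation factors, 44.4% of chromatin enzymes and 32.8% of cytosolic ribosomal proteins. They were at 29.7% of replication and repair genes and 23.8% of proteasome genes. The shares of the lists have to be read beside these. With counts this small the order of the lists is not resolved, and they were not tested.

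Among germline genes, 2 of 30 had a hotspot at the start. The Dazl hotspot had a DMC1 signal of 67.0 and SYCP3 peaks in Spo11KO and Mei4KO besides Iho1KO. That of Boll, another gene of the Dazl family, had a signal of 111.5 and no further SYCP3 list. The meiotic gene was Sycp1 (29.5), also with SYCP3 in Spo11KO and Mei4KO.

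SYCP3 of 3 other mutants recurred at these hotspots, and SYCP3 of the wild type and Hormad1KO was found at few of them. In Spo11KO, which makes no breaks, 115 of the 510 hotspots (22.5%) had an SYCP3 peak, against 5.95% of all autosomal hotspots and 30 of 5222 other weak hotspots (0.574%). The difference was 22.0 points (18.6 to 25.8). In Mei4KO there were 66 (12.9%), against 1.11% of all autosomal hotspots and 12 others (0.23%; difference 12.7 points, 10.1 to 15.9). In Prdm9KO there were 52 (10.2%), against 1.1% of all and 21 others (0.402%; difference 9.79 points, 7.45 to 12.7). These 3 differences were called and stayed so in each alternative that was run. However, the hotspots were chosen for an SYCP3 peak in Iho1KO and the others for lacking one. How often Iho1KO SYCP3 peaks at no hotspot recur in these lists is not given here. The excess over the other weak hotspots, here and below, therefore cannot be told apart from a general overlap of SYCP3 lists.

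In Hormad1KO the hotspots with an SYCP3 peak numbered 9 (1.76%), with 1.46% of all autosomal hotspots and 3 others (0.0574%; difference 1.71 points, 0.866 to 3.26, called). In the wild type there were 3 (0.588%), against 7.56% of all autosomal hotspots and 9 others (0.172%). That difference, 0.416 points (-0.00188 to 1.55), was not called, but it was called in 5 alternatives, with values from 0.449 to 11 points, and at gene starts it was -0.303 points. The set of all hotspots includes strong ones, and the gap to its share was not tested. These 5 lists differ in length, from 607 peaks in Prdm9KO to 2369 in Spo11KO, with 823 in Hormad1KO and 1911 in the wild type, so the shares do not rank the genotypes by SYCP3 binding. They also differ in how many of their peaks lie at gene starts: 43.8% in Spo11KO, 47.7% in Mei4KO, 40.9% in Prdm9KO, 11.1% in Hormad1KO and 5.04% in the wild type.

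Counted together, 156 of the 510 hotspots (30.6%) had SYCP3 in at least 1 genotype besides Iho1KO, compared with 11.4% of all autosomal hotspots and 56 other weak hotspots (1.07%; difference 29.5 points, 25.7 to 33.7). The remaining 354 (69.4%) had SYCP3 in Iho1KO alone among the 6 lists. The Iho1KO list was the longest of these, with 5380 peaks against 2369 in Spo11KO. The count therefore does not show that SYCP3 at these sites was particular to Iho1KO. A single further list was found at 88, 2 at 48, 3 at 19 and 4 at 1, and none had all 5. Among the 5222 other weak hotspots the counts in the same order were 44, 6, 5 and 1, and again none had all 5. Of the 66 hotspots with SYCP3 in Mei4KO, 49 also had it in Spo11KO (74.2% of the Mei4KO and 42.6% of the Spo11KO hotspots). Prdm9KO and Spo11KO shared 26 (of 52 and of 115), and Mei4KO and Prdm9KO 19 (28.8% and 36.5%). Such pairs of lists were counted in the 510 only, so these overlaps cannot be called particular to them.

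**Figure D4:**
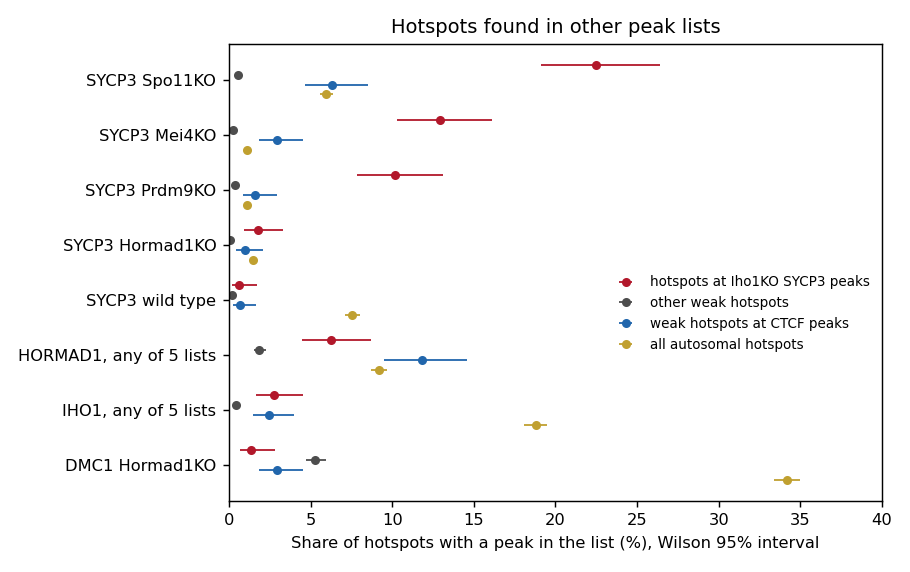
Points give the share (%) of hotspots with a peak in each list, with Wilson 95% intervals, for hotspots at Iho1KO SYCP3 peaks, other weak hotspots, weak hotspots at CTCF peaks and all autosomal hotspots. The first set is highest for SYCP3 in Spo11KO (22.5%), Mei4KO (12.9%) and Prdm9KO (10.2%), and at 1.37% it is lowest of the 4 for DMC1 in Hormad1KO.

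The recurrence in Spo11KO, Mei4KO and Prdm9KO was also called within gene starts alone. At starts, SYCP3 in Spo11KO was at 23.8% of the hotspots described here and 5.9% of the others (difference 17.9 points, 13.0 to 22.9). In Mei4KO the shares were 13.0 and 1.97% (11 points, 7.37 to 14.8), and in Prdm9KO 9.84 and 2.53% (7.32 points, 3.92 to 10.9). In Hormad1KO, 6 and 2 hotspots at starts had SYCP3 and the difference was not called (0.993 points, -0.695 to 2.83). In the wild type 1 of 386 and 2 of 356 had it, also not called (-0.303 points, -1.78 to 0.959). Among the 510 themselves, no difference by position was called: a further SYCP3 list was found at 31.6% of those at starts and 29.4% of those elsewhere (2.19 points, -8.25 to 11.5, not called). As 68 of the 102 hotspots elsewhere were at ends of genes without an entry, this is largely a comparison between gene ends.

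The hotspot with the most SYCP3 lists lay over the divergent Fam228b and Pfn4 starts (chr12:4767723-4770762, signal 52.5), with peaks in Prdm9KO, Spo11KO, Mei4KO and Hormad1KO. Its centre was 8 bp from the Fam228b start. The Trap1 hotspot (chr16:4076854-4078065, 37.0), whose promoter opens the sequences above, had SYCP3 in Spo11KO, Mei4KO and Hormad1KO, HORMAD1 in the wild type and Mei4KO, and IHO1 in the wild type and Spo11KO. The Ppp2r1b hotspot (24.0) had the same 3 SYCP3 lists. Prdm9KO, Spo11KO and Mei4KO were the 3 lists at Nupl2 (22.5), Psmd6 (52.5), Dync1li2 (46.5), Mtdh (73.5) and a site inside 2700081O15Rik (chr19:7420209-7423562, 49). The Lyrm2 hotspot (69.0; a mitochondrial protein) was unusual in having SYCP3 in the wild type, with Spo11KO and Mei4KO. One site outside genes, at chr7:144432234-144433805 next to Cttn (cortactin), had a 5780 bp wide SYCP3 peak in Iho1KO and SYCP3 in Spo11KO, Mei4KO and Hormad1KO.

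HORMAD1 and IHO1 were rare at these hotspots. HORMAD1 in any of 5 genotypes was at 32 (6.27%), against 9.17% of all autosomal hotspots and 97 other weak hotspots (1.86%; difference 4.42 points, 2.58 to 6.89, called). By genotype the wild type had 6 (1.18%), Prdm9KO 7 (1.37%), Spo11KO 7 (1.37%), Mei4KO 20 (3.92%) and Iho1KO 11 (2.16%). In the same order, all autosomal hotspots had 4.66, 0.391, 5.3, 2.04 and 1.43%. The other weak hotspots had 0.211, 0.115, 0.268, 1.46 and 0.306%, and the difference from them was called in each genotype. In Iho1KO itself, where all 510 had an SYCP3 peak, HORMAD1 was thus at 2.16%. IHO1 in any of 5 genotypes was at 14 (2.75%), against 18.8% of all autosomal hotspots and 23 others (0.44%; difference 2.3 points, 1.18 to 4.12, called). The wild type had 4 (0.784%), Prdm9KO 1 (0.196%), Spo11KO 5 (0.98%), Mei4KO 4 (0.784%) and Hormad1KO 3 (0.588%). In the same order, all autosomal hotspots had 4.08, 0.15, 14.6, 0.293 and 12.7%. The other weak hotspots had 0.211, 0.0191, 0.23, 0.0574 and 0.0574%, and the difference from them was called in each genotype except Prdm9KO. Weak hotspots at CTCF peaks had HORMAD1 in any genotype in 11.8% (73 of 617; difference -5.56 points, -8.87 to -2.19, called). They had IHO1 in 2.43% (15; difference 0.314 points, -1.58 to 2.36, not called).

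The HORMAD1 and IHO1 differences were called away from gene starts and not at them. At starts, 18 of 386 had HORMAD1 against 23 of 356 others (difference -1.8 points, -5.28 to 1.55), and 6 had IHO1 against 7 (-0.412 points, -2.61 to 1.65). Neither was called. Elsewhere 14 of 102 had HORMAD1 (13.7%) and 8 IHO1 (7.84%), against 1.55 and 0.323% of the others. Within the 510, the share at starts minus that elsewhere was -9.06 points for HORMAD1 (-17.2 to -3.1) and -6.29 points for IHO1 (-13.2 to -2.07), both called. Of the 18 hotspots away from every annotated gene end, 7 had HORMAD1 (38.9%) and 4 had IHO1 (22.2%). Of the 4292 other weak hotspots there, 46 (1.07%) and 9 (0.21%) did, and both differences were called. All autosomal hotspots, at any position, had HORMAD1 in 9.17% and IHO1 in 18.8%. The split by every annotated gene end was made after the values were seen.

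DMC1 in Hormad1KO found 7 of the 510 hotspots again (1.37%). Of all autosomal hotspots 34.2% were found, and of the other weak hotspots 276 (5.29%; difference -3.91 points, -4.87 to -2.37, called). The Hormad1KO list was shorter than that of the wild type, with 5002 peaks against 13808. Of its peaks 2.64% lay at gene starts, against 9.3% in the wild type. The shares found again have to be read beside these values. By class of wild-type signal, from weakest to strongest, 1 of 120, 0 of 154, 2 of 134 and 4 of 102 were found, against 0.815, 3.45, 6.4 and 11% of the others. The difference was not called in the weakest class (0.0185 points, -0.919 to 3.77) and was called in the next 3 (-3.45, -4.91 and -7.05 points). Over the weaker 50% of the weak hotspots, 1 of 270 was found and 56 of 2664 others, and the difference was not called (-1.73 points, -2.42 to 0.0321).

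The difference moved with gene context. At gene starts, 6 of 386 (1.55%) were found in Hormad1KO and 6 of 356 others (1.69%; difference -0.131 points, -2.25 to 1.88, not called). Away from starts, 1 of 102 was found and 267 of 4637 others (5.76%; -4.78 points, -5.85 to -0.366, called). The context of these 2 sets was not equal, since 66.7% of the 102 and 1.98% of the 4637 were at ends of genes without an entry. Away from every annotated gene end, 0 of 18 and 244 of 4292 were found, and the difference was not called (-5.68 points, -6.42 to 11.9). As 79.1% of the hotspots described here and 7.13% of the others were at starts, the part of gene context in the overall difference cannot be told apart from that of SYCP3. Against weak hotspots at CTCF peaks, of which 18 of 617 were found (2.92%), the difference was not called (-1.54 points, -3.34 to 0.24).

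**Figure D5:**
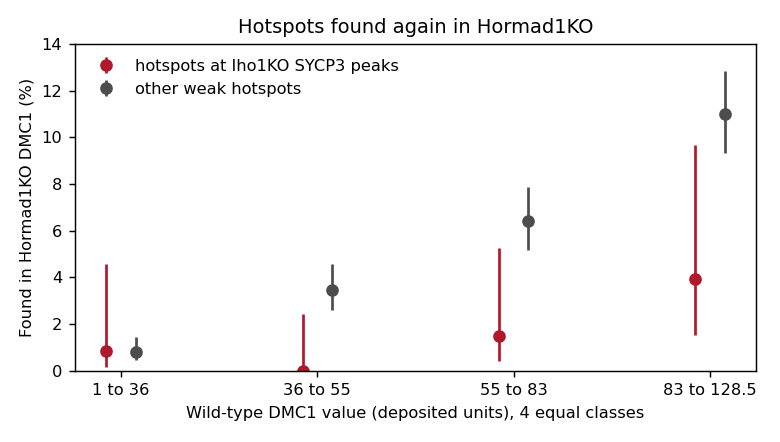
Points give the share (%) of hotspots found again in Hormad1KO DMC1, with Wilson 95% intervals, in 4 equal classes of the wild-type DMC1 value (deposited units). The share rises with the value in the other weak hotspots, to 11%, and does not pass 3.92% in the hotspots at Iho1KO SYCP3 peaks.

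The 7 hotspots found in Hormad1KO had wild-type signals from 23.0 to 125.5. The deposited Hormad1KO signal was 57.5 near the Rassf1 start (wild type 112.0), 57.0 at Sacm1l, a phosphoinositide phosphatase (125.5), and 43.0 at the site next to Cttn (63.5). It was 37.0 at the cyclin gene Ccnl2 (122.5), 31.0 at Mtfmt, a mitochondrial formyltransferase (101.5), 30.5 at the proteasome gene Psmd11 (23.0) and 24.5 at the G protein gene Gnb1 (76.5). The unit of neither list is named, so the values of the 2 lists are given side by side and not compared. SYCP3 in Spo11KO, found at 22.5% of the 510, was also found at 4 of the 7, namely Sacm1l, Ccnl2, Psmd11 and the site next to Cttn, a count too small to compare.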

How the data were processed

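Each peak list is the authors' deposited file for replicate 1 of a group, and whether replicates were pooled is not given in the sources used here. The submitters' processing notes name mm10, Bowtie2 and MACS2, with no version or role. Per the series' design text, the signal of the protein's own knockout was subtracted for MEI4, IHO1, HORMAD1 and SYCP3. The protein lists give a start and an end only. The DMC1 lists add a deposited signal for every hotspot, in a unit that the authors left unnamed, which served only to choose, rank or describe hotspots within 1 list. The members, gene lists and comparisons were chosen with earlier results of these data known.

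Overlap meant at least 1 bp. A gene start was a protein-coding start of the RefSeq promoter table (GRCm38.p6) widened by 1000 bp. This table was used for 18 autosomes, since 22 of the 510 hotspots lay on a chromosome without entries. Other gene ends came from the RefSeq gene table. Shares have Wilson and differences Newcombe 95% intervals, and no p-value was computed because there is 1 list per group and hotspots are not replicates. The 9 differences from the other weak hotspots were main results. Python 3.11.15, numpy 2.4.6, pandas 2.3.3 and statsmodels 0.14.6 were used, and the overlap and interval steps were tested on simulated data. Hotspots named were the 10 in most SYCP3 lists (ties by HORMAD1 and IHO1 lists, then overlap), the 5 with the highest Hormad1KO signal, the 3 on each side of the threshold, the 3 farthest from a gene, and those at genes of the lists. The other 2 of the 7 in Hormad1KO, the hotspots inside genes away from every end, and the divergent pairs besides Fam228b and Pfn4 were named after their values were seen. Expression, read depth and the 12 groups without a list used here were not analysed.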

Additional observations from a re-analysis of the deposited data

How the results depend on the processing

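With 1 peak list per group, no reading was checked in a second sample, and depth limits what a list could hold by an unknown amount. No paired analysis was possible because each group has 1 peak list and no test over samples was made. Of 73 alternative values, 61 kept direction and side of the threshold. The alternative with 1 hotspot per SYCP3 peak is not among them, since no peak touched more than 1 of the hotspots and it could change nothing. The difference at gene starts stayed between 67.8 and 75.7 points, and those for SYCP3 in Spo11KO (11.1 to 23.1), Mei4KO (11 to 16.6) and Prdm9KO (5.44 to 13.7) were called throughout. The difference for wild-type SYCP3, 0.416 points, rests on 3 hotspots and was called with an overlap of 50% of the shorter interval (0.624), a 1 kb window (0.449), the wider 50% of Iho1KO SYCP3 peaks (0.973), away from gene starts (1.81) and away from every annotated gene end (11, of 18 hotspots), while at starts it reversed to -0.303. At starts alone, SYCP3 in Hormad1KO (0.993) was no longer called, HORMAD1 (-1.8) and IHO1 (-0.412) reversed, and DMC1 in Hormad1KO (-0.131) was no longer called. The last was also not called in the weaker 50% of the weak hotspots (-1.73) or away from every annotated gene end (-5.68). The alternatives with either end of every gene and away from every end were chosen after seeing the data. The cause of these changes was not tested.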
